A study of Mus musculus with 4 samples.

Results

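The core circadian clock of mammals is a feedback loop of transcription factors, and 8 of its genes are described here in normal mouse skeletal muscle. They are the activators Arntl, Clock and Npas2 and the repressors Per1, Per2, Per3, Cry1 and Cry2. Each gene was read from the probe sets that the platform annotation gives to it alone, over all 4 arrays, and the probe set with the highest mean stood for the gene. All 8 genes were measured, by 13 of the 20380 probe sets with 1 gene and as 8 of 12393 genes. They were chosen with their values in these samples known, so the values are a description, and the differences support nothing further.

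The samples are bulk muscle from Wild Type mice whose strain is mixed 129S4/SvJae and C57BL/6, with 1 Affymetrix array each and titled nm7, nm8, skm4 and skm5. All 4 belong to 1 group, with no treatment, deletion or transgene named, and the labels do not say that they came from separate animals. The muscle sampled, the age of the mice and the time of day of collection are not given in the sources used here, and neither is the meaning of the title prefixes nm and skm. The series sets normal muscle beside sarcomas, which were not analysed here.

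In the loop, the protein of Arntl, also called Bmal1, pairs with that of Clock or its relative Npas2, and the pair binds short DNA motifs called E-boxes to switch on genes that include the Per and Cry genes. The PER and CRY proteins then hold the pair back, and their slow build-up and decay make the levels cycle over the day. Arntl transcription is in turn set by nuclear receptors of the ROR and REV-ERB families, so in most tissues, muscle included, Arntl RNA peaks when Per RNA is low. In bulk tissue, fewer cells of a type and less RNA per cell cannot be told apart.

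The 3 activators were lower, and Per1, Per2, Per3 and Cry2 higher, in both samples titled skm than in both titled nm, while Cry1 was lower together with the activators. By the probe set that stands for each gene, the means lay furthest apart for Per2, at 8.03-fold with nm8 near the background, and least for Cry1, at 1.40-fold. With a gene's probe sets averaged, the log2 difference was 1.84 for Per2 against 1.88 for Per1, and 0.45 for Per3 against -0.48 for Cry1, so both ranks turned. On the log2 scale and centred on each gene's mean, the median of the activators was 0.66 and 0.69 in nm7 and nm8 and -0.65 and -0.77 in skm4 and skm5. The median of the repressors was -0.83, -0.60, 0.88 and 0.79 in the same order. Both medians changed sign between the prefixes and kept it within each prefix. Centring gives this for genes chosen with such a split between the pairs, so nothing is read from it. Cry1 went against the median of the repressors, at 0.23 and 0.25 in nm7 and nm8 and -0.25 and -0.23 in skm4 and skm5.

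**Figure D1:**
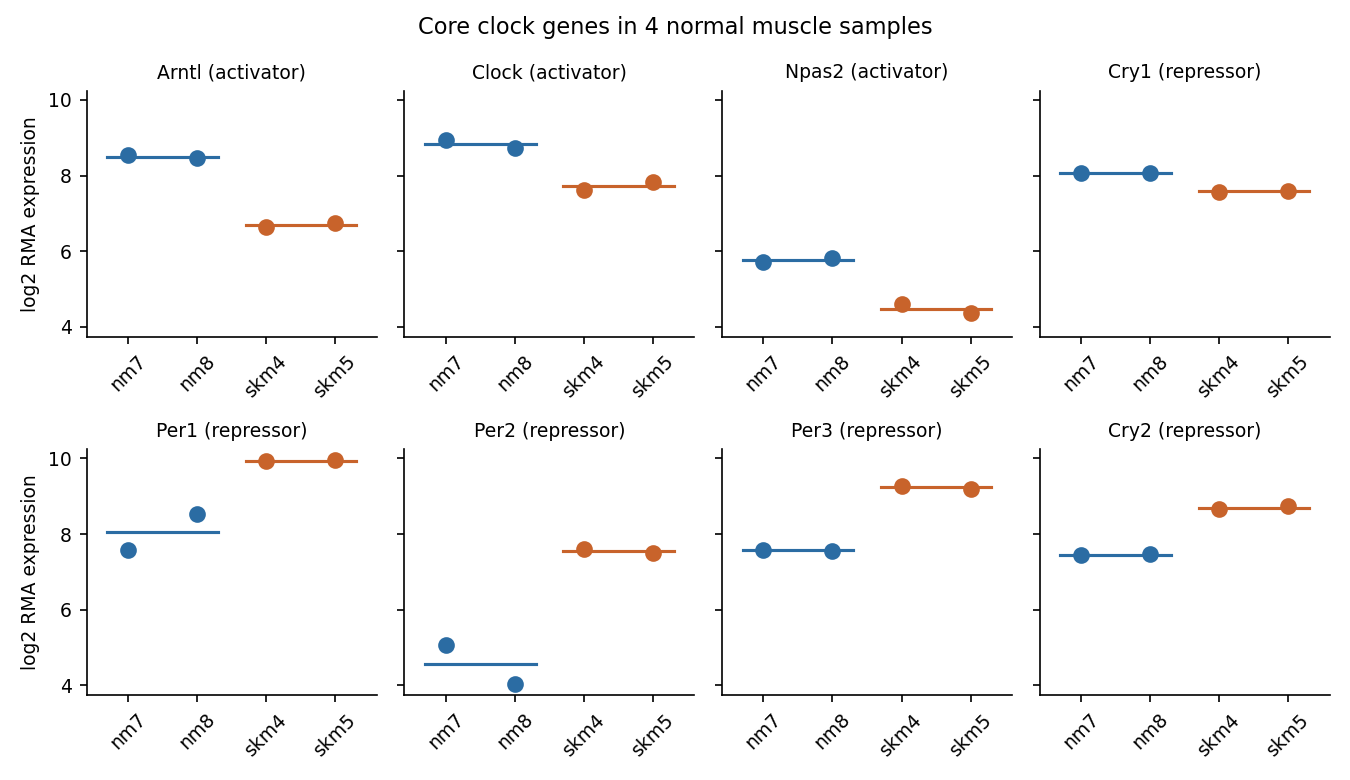
Log2 RMA expression of each core clock gene (vertical axis) in the 4 normal muscle samples (horizontal axis), with 1 point per array, blue for titles in nm, orange for titles in skm, and a line at the mean of each pair. In every panel both orange points lie on the same side of both blue points, and the 2 blue points of Per1 and Per2 lie about 1 log2 unit apart.

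Since the Per and Cry genes are bound by Arntl with its partners, the promoter letters of members that differed in opposite directions are printed for comparison. RefSeq windows of 300 bases around transcript starts (GRCm38.p6) were held for 7 members in 11 windows, and Per2 had no entry. Each window was searched on both strands for the E-box CACGTG, its variant CACGTT, the D-box letters TTATGTAA and TTACGTAA, which are bound by Dbp and its relatives, and TAGGTCA, the core of the element bound by ROR and REV-ERB receptors. CACGTG and CACGTT share their first letters but cannot match at the same place on 1 strand. Capitals below mark the matches, and the strand given is that of the gene.
Per1, chr11:69098699-69098998, plus strand, E-box at -166 from the start: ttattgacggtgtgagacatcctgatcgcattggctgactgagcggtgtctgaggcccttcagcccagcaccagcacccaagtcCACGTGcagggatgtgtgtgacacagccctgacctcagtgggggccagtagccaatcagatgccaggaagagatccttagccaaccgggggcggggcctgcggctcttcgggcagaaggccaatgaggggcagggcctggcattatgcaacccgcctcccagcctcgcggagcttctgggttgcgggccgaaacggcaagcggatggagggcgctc
Per3, chr4:151044616-151044915, minus strand, D-box letters at -205 and -158: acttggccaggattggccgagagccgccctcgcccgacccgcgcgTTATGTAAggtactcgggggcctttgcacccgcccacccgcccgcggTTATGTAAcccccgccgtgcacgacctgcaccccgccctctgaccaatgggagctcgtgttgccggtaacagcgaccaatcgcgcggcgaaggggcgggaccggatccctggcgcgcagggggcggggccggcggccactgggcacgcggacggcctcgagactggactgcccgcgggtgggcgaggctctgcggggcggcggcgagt
Cry1, chr10:85185005-85185304, minus strand, CACGTT on the other strand at -79 and the E-box at -60: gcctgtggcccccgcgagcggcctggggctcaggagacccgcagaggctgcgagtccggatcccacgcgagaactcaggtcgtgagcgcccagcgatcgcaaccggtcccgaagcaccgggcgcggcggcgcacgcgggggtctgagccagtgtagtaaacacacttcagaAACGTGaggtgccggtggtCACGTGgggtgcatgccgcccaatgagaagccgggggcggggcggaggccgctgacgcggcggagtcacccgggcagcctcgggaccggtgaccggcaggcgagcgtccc
Cry2, chr2:92434020-92434319, minus strand, CACGTT on the other strand at -166: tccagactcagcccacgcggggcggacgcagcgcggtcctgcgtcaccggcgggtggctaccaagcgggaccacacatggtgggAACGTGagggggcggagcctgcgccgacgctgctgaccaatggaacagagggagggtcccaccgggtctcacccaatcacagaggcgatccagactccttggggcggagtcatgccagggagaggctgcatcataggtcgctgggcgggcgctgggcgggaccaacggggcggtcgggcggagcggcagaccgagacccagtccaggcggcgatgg
Arntl, chr7:113207261-113207560, plus strand, receptor core letters 30 bases into the transcript: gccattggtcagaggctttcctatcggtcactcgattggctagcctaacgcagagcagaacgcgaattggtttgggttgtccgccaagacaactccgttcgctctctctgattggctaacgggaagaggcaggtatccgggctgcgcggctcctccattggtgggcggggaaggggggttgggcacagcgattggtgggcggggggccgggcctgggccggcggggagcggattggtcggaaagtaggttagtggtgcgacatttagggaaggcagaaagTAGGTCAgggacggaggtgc

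The E-box CACGTG was found in 2 of the 11 windows, of Per1 and Cry1, against 7.15% of all 32851 windows of that length. CACGTT was in 2 windows, of Cry1 and Cry2, against 4.68% of all windows. TTATGTAA was in 1, that of Per3, where it stood at 2 places, against 0.938% of all windows, and TAGGTCA in 1, a window of Arntl, against 2.61%. TTACGTAA was in 0 of the 11 and in 0.119% of all windows. Per1 and Cry1 thus share the E-box letters, and their expression differed in opposite directions between the prefixes. The windows of Clock and Npas2 and the other windows of Arntl and Per1 held none of these letters.

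Arntl, the activator without which the loop does not run, read 8.54 and 8.46 in nm7 and nm8 and 6.65 and 6.76 in skm4 and skm5 (log2 RMA expression, SD 1.04, n = 4). The samples formed a high pair and a low pair, 1.70 apart at their nearest and at most 0.11 apart within a pair. Between the means, the skm samples were lower by 3.46-fold, a difference of -1.79 ± 0.12 (SE of limma's fit over all genes, 2 samples against 2). Of all 12393 genes, 22 had a larger absolute difference.

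Clock, the partner of Arntl in most tissues, read 8.94 and 8.72 in nm7 and nm8 and 7.62 and 7.82 in skm4 and skm5 (SD 0.65, n = 4). The prefixes did not overlap, with a gap of 0.90, and the difference of the means was -1.11 ± 0.14 (SE). Its other probe set gave 8.59, 8.59, 6.96 and 7.34, a difference of -1.44, so both of its probe sets put the skm samples lower.

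Npas2, which can take the place of Clock beside Arntl, read 5.73 and 5.82 in nm7 and nm8 and 4.59 and 4.35 in skm4 and skm5 (SD 0.76, n = 4). The skm samples were lower by 2.46-fold in the means, -1.30 ± 0.14 (SE). These levels were dim: the array's control probe sets for TrpnX, a bacterial transcript absent from mouse, read 3.40 to 4.05 over the 4 arrays. Its other probe set stayed between 4.67 and 5.11 in all samples and differed by 0.03, so the low level of Npas2 in skm rests on 1 probe set, and with the mean of both the difference was -0.63.

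Among the repressors, Per1, which responds fast to light, feeding and stress hormones, read 7.59 and 8.53 in nm7 and nm8 and 9.92 and 9.95 in skm4 and skm5 (SD 1.15, n = 4). Both nm samples were lower than both skm samples, but they lay 0.95 from each other, against 0.03 between the skm samples. The difference of the means was 1.88 ± 0.31 (SE), or 3.67-fold. It was 1.40 without nm7 and 2.35 without nm8.

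Per2, a repressor whose loss disturbs the daily rhythm of behaviour in mice, read 5.08 and 4.03 in nm7 and nm8 and 7.62 and 7.50 in skm4 and skm5 (SD 1.79, n = 4). The skm samples were close to each other and at least 2.42 above the nm samples, of which nm8 lay in the range of the TrpnX control probe sets of that array (3.57 to 4.05). The difference of the means was 3.0 ± 0.34 (SE), and 3 of the 12393 genes had a larger one in absolute size. Its other probe set read 4.94, 4.88, 5.74 and 5.44, a difference of 0.68 in the same direction, and the mean of both probe sets gave 1.84. Since RMA values are compressed near the background, the fold of Per2 is limited by its level in the nm samples.

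Per3, a relative of Per1 and Per2 with a lesser part in the loop, read 7.57 and 7.56 in nm7 and nm8 and 9.28 and 9.19 in skm4 and skm5 (SD 0.96, n = 4). The nm samples were within 0.01 of each other and the skm samples within 0.09, with a gap of 1.62 between the pairs. The means differed by 1.67 ± 0.12 (SE), or 3.17-fold. Its other 2 probe sets were dim and put the skm samples slightly lower, with means of 5.33 in nm and 5.12 in skm for the brighter one and of 4.70 and 4.60 for the dimmer one. The mean of the 3 probe sets differed by 0.45.

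**Figure D2:**
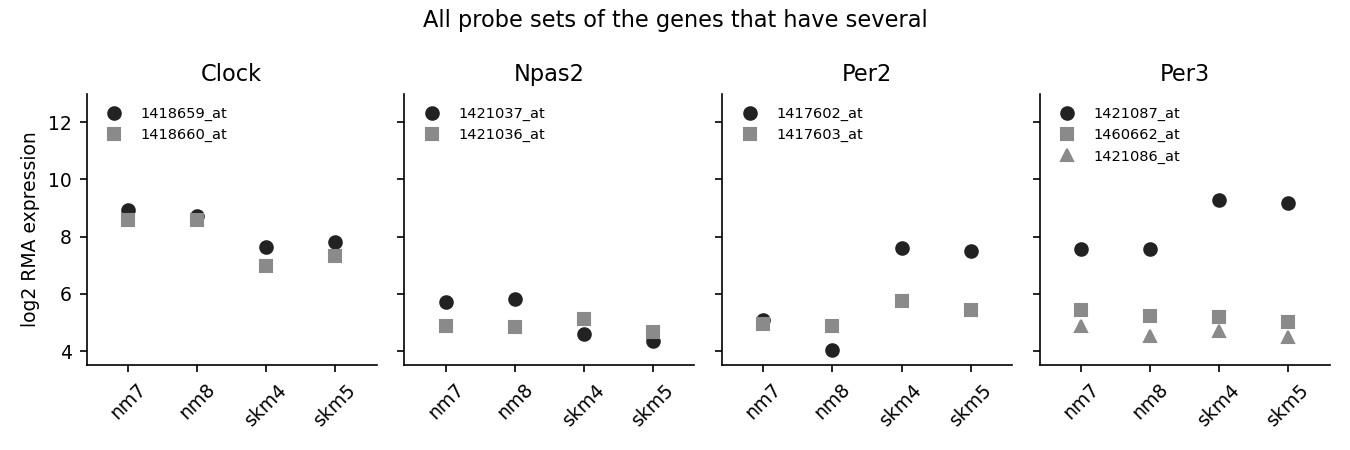
Log2 RMA expression (vertical axis) of every probe set in the 4 samples (horizontal axis) for the 4 members that have several, with black points for the probe set that stands for the gene and grey points for the others. Both probe sets of Clock are lower in skm4 and skm5, and the grey points of Npas2 and Per3 show no step like that of the black points.

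The cryptochromes differed in opposite directions. Cry2 read 7.44 and 7.48 in nm7 and nm8 and 8.65 and 8.75 in skm4 and skm5 (SD 0.72, n = 4). The skm samples were higher, with a gap of 1.18, and the means differed by 1.24 ± 0.12 (SE), or 2.37-fold. Cry1, whose RNA peaks later in the cycle than that of the Per genes, read 8.06 and 8.08 in nm7 and nm8 and 7.58 and 7.60 in skm4 and skm5 (SD 0.28, n = 4). The samples of each pair differed by 0.02, and the skm pair was lower by 0.46 at the nearest, with a difference of the means of -0.48 ± 0.11 (SE). The sizes were unequal: 1841 genes had a larger absolute difference than Cry1 and 102 a larger one than Cry2. Each cryptochrome had 1 probe set, so no second reading of either was at hand.

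All 8 members had no overlap between the prefixes, 4 higher and 4 lower in skm. This is common in these arrays: 54.4% of all genes had none, 25.8% higher and 28.6% lower in skm. A range over the samples above 1 on the log2 scale, which is 2-fold, was found for 7 of 8 members (all but Cry1) and for 5.98% of all genes. A difference of the means above 1 in absolute size was likewise found for 7 of 8, against 1.78% of all genes. The median absolute difference was 1.48 over the members and 0.20 over all genes, and the median SD 0.86 against 0.19. By limma's test with Benjamini-Hochberg adjustment over all genes, 2 of 8 members were called at the threshold of 0.05, Arntl lower (0.00807% of all genes were called lower) and Per3 higher (0.0242% called higher, and 0.0323% called in either direction). Without any 1 of the 4 samples 0 of the 8 were called, and with the mean of a gene's probe sets Per3 was not (adjusted p = 0.127, limma). With all 4 samples, Clock, Npas2, Per2 and Cry2 each had an adjusted p of 0.0506 (limma), Per1 0.0608 and Cry1 0.0941. Since the members were chosen with this contrast known, nothing is read from these shares.

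**Figure D3:**
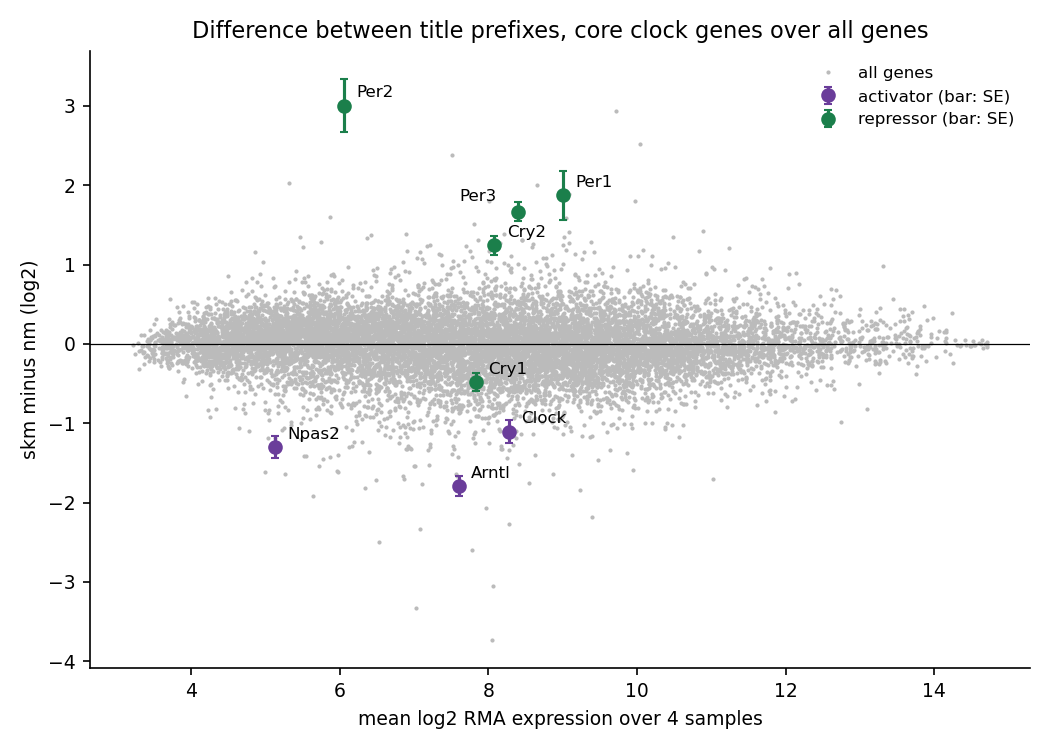
Difference of the means, skm minus nm (vertical axis, log2), against the mean log2 RMA expression over the 4 samples (horizontal axis) for all genes in grey, with activators in purple, repressors in green and bars for the SE of limma's fit. Arntl, Clock and Npas2 lie at -1.79, -1.11 and -1.30, Cry1 at -0.48, and the other 4 repressors between 1.24 and 3.0.

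Members were also compared by the root mean square distance over the 4 samples between values centred on each gene's mean. The values were not scaled, so the distance reflects the size of the difference between the prefixes as well as its form. Arntl and Cry1, both lower in skm, were thus 0.66 apart. Arntl and Per3 were nearest to mirror images, with a distance of 0.07 between Arntl and the sign-turned Per3, followed by Npas2 and Cry2 at 0.07 and Clock and Cry2 at 0.14. These distances use the probe set that stands for each gene. The other probe sets of Per3 and Npas2 showed no such step. Among members that went the same way, Clock and Npas2 were 0.21 apart, Per3 and Cry2 0.22, Arntl and Npas2 0.28, Clock and the repressor Cry1 0.33 and Arntl and Clock 0.35. Per2 stood farther from its nearest relative, at 0.76 from Per3 and 0.91 from Per1. The differences of the means were unequal, at 3.0 for Per2, 1.67 for Per3 and 1.88 for Per1. The sample lowest for Per2 was nm8, and that lowest for Per1 was nm7.

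By the same distance, the genes most like each member, other than the 8 themselves, were found over the 12393 genes and 4 samples. Nearest to Arntl were Lpxn, which encodes the adaptor leupaxin (0.14), Trim12a (0.15) and Nnat (0.19). Nearest to its mirror image were Dysf, the membrane repair protein dysferlin (0.06), Slc25a25, which carries ATP-Mg across the inner mitochondrial membrane (0.14), and Smyd1, a methyltransferase of striated muscle (0.19). Dysf read 8.14 and 8.15 in nm7 and nm8 and 10.05 and 10.02 in skm4 and skm5, which is a step of the size of Arntl in the other direction. Clock was nearest to AU020206 (0.04), Xpot, which exports transfer RNA from the nucleus (0.05), and Cd83, a surface protein of activated immune cells (0.06), and Npas2 to Zfp52 (0.02), B3gnt5 (0.07) and Homer1, a scaffold protein (0.07).

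Per1 was nearest to Paip1, a translation factor (0.23), Gadd45g, a stress-induced growth arrest gene (0.25), and Slc25a25 (0.32). Gadd45g shared the low value in nm7 that Per1 had, at 8.26 against 9.88 in nm8, 10.76 in skm4 and 10.99 in skm5. The nearest genes to Per2 were farther off, Slc25a25 and Dbp both at 0.65 and Angptl7 at 0.66. Per3 was nearest to Dysf (0.11), Smyd1 (0.14) and Vegfb, a growth factor of the VEGF family (0.16), and Cry2 to Art5 (0.03), the phosphatase Dusp14 (0.05) and Tpsab1, a mast cell tryptase (0.05). Distances of 4 points are a description only, and many genes of 12393 can lie close by.

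Among other genes of the clock loop, Dbp differed about as much as Per2, and the rest of the list by under 1 on the log2 scale by the probe set that stands for each. Of a list of 26, 22 were measured, and 0 passed limma's test over all genes in either direction, with 8 at an unadjusted p under 0.05, as were 2918 of all genes. Over the list, the absolute difference had a median of 0.25 against 0.20 over all genes, 16 of 22 had no overlap, 9 higher and 7 lower in skm (54.4% of all genes, 25.8% higher and 28.6% lower), and 3 had a range above 1 (5.98% of all genes). The overlap counts use 1 probe set per gene and gaps of any size. Rora counted as lower at -0.22, while its other probe sets differed by 0.63 without overlap and by -0.01 with overlap. The gaps of Nr1d1 and Gsk3b were 0.0026 and 0.0057. The 6 with the largest difference were Dbp, Tef, Timeless, Csnk1e, Nr1d1 and Usp2. This list and the one that follows were chosen with results on these samples in view.

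Dbp, a transcription factor switched on through E-boxes, read 7.86 and 8.66 in nm7 and nm8 and 11.22 and 11.16 in skm4 and skm5, a difference of 2.93 ± 0.27 (SE; limma, adjusted p = 0.0506). Its nm7 value was its lowest, as for Per1. Tef, a relative of Dbp, differed by 0.94 ± 0.14 (adjusted p = 0.0562), with 10.49 and 10.64 in nm7 and nm8 and 11.62 and 11.40 in skm4 and skm5. Nr1d1, which encodes REV-ERB alpha, a repressor of Arntl, read 7.40 and 8.31 in nm7 and nm8 and 8.60 and 8.31 in skm4 and skm5, so that nm8 and skm5 were alike and nm7 stood below the rest. Its difference was 0.60 ± 0.31 (adjusted p = 0.309).

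Among the other genes of the list, Timeless, a partner of replication forks named for a fly clock gene, differed by -0.71 ± 0.12 (SE; limma, adjusted p = 0.0631). Csnk1e, a kinase that marks PER proteins for breakdown, differed by 0.69 ± 0.13 (adjusted p = 0.0693), and Usp2, a deubiquitinase under clock control, by 0.58 ± 0.12 (adjusted p = 0.0773). Csnk1d, the other kinase of PER proteins on the list, was singled out after its values were seen. Its brightest probe set differed by -0.41 ± 0.12, while the other 4 were higher in skm without overlap, by 0.32 to 1.41, so its direction is unsettled. The second probe set of Timeless differed by -0.06 with overlap, and those of Csnk1e and Usp2 by 0.57 and 0.72. Arntl2, the paralog of Arntl, read between 6.59 and 6.90 in all samples, and it was singled out likewise.

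Genes of the protein family of Arntl, Clock and Npas2, the bHLH-PAS factors, served as a second list, with the nuclear receptor coactivators that carry the same fold. Of 15 listed, 14 were measured and 0 passed limma's test over all genes, with 5 at an unadjusted p under 0.05, as were 2918 of all 12393 genes. For 8 of the 14 the prefixes had no overlap, 3 higher and 5 lower in skm (54.4% of all genes, 25.8% higher and 28.6% lower). Their median absolute difference was 0.22, against 0.20 over all genes, and 1 had a range above 1 (5.98% of all genes). This gene was Hif3a, a hypoxia factor, which read 7.81 and 7.85 in nm7 and nm8 and 8.43 and 9.14 in skm4 and skm5, a difference of 0.96 ± 0.24 (SE; adjusted p = 0.104). Its other 2 probe sets differed by 0.04 and -0.02, both with overlap, so that difference rests on 1 probe set. Ahr, the receptor for dioxins, differed by -0.79 ± 0.13 (limma, adjusted p = 0.0628), and Ncoa1, a coactivator, by -0.63 ± 0.13 (limma, adjusted p = 0.0782). The second probe set of Ahr differed by 0.20 with overlap, and that of Ncoa1 by -0.35.

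**Figure D4:**
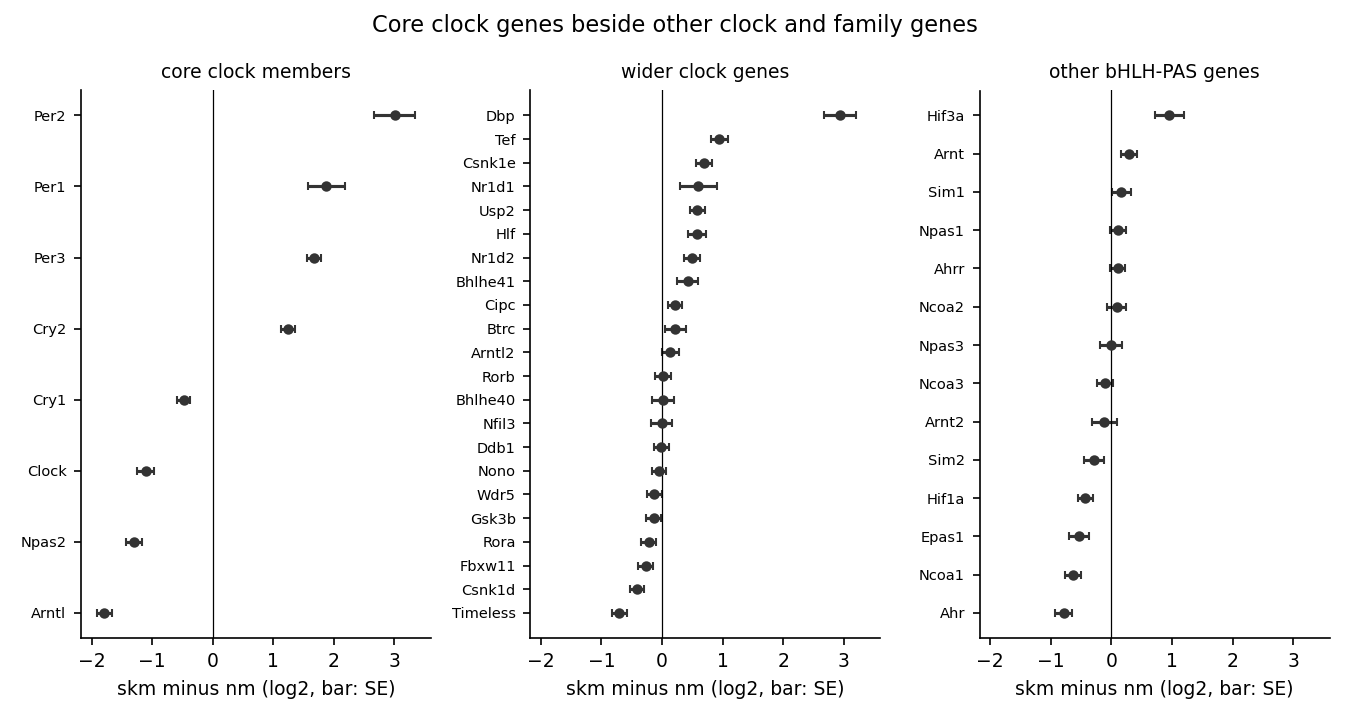
Difference of the means, skm minus nm (horizontal axis, log2), for each gene (vertical axis) of the core members, the wider clock list and the other bHLH-PAS genes, with bars for the SE of limma's fit. Of the wider clock genes Dbp alone lies beyond 1 in either direction, at 2.93, and of the family genes Hif3a lies highest, at 0.96, and Ahr lowest, at -0.79.

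The tissue matched its label, with all 8 skeletal muscle markers between 13.35 and 14.70 on every array, near the top of the scale. Markers of other cell types differed between the samples as well. The summed linear signal of 8 measured lymphocyte markers was 3322 and 4047 in nm7 and nm8 and 624 and 1560 in skm4 and skm5. All 8 were lower in skm without overlap, as were 28.6% of all genes. The 8 include Ptprc, which is not particular to lymphocytes among white blood cells and read 10.43, 10.54, 7.28 and 9.33 in the same order. That of 8 keratinocyte markers was 2223 in skm5 against 747 to 864 in the other samples, with Dsp at 8.33 there and at most 4.48 elsewhere. Sfn and Trp63 did not follow: Sfn read 6.12 in skm5 and 6.06 to 6.17 elsewhere, and Trp63 6.09 in skm5 and 6.21 in nm7. The sum over 6 adipocyte markers was 32231 and 34778 in nm7 and nm8 and 21674 and 28147 in skm4 and skm5, that over 6 macrophage markers 5411, 5234, 3390 and 4794, that over 3 Schwann cell markers 6943, 6448, 4641 and 9241, and that over 5 endothelial markers 3034 to 3275 over all samples. Not every marker followed its sum. Of the 6 adipocyte markers, 4 were lower in skm without overlap (28.6% of all genes), while Fabp4 and Retn overlapped. Of the 6 macrophage markers, 2 were lower without overlap, and Cd68 was highest in skm5, at 7.21. The even endothelial sum held 1 marker higher in skm without overlap and 2 lower. Pecam1 read 7.77 and 7.83 in nm7 and nm8 and 8.92 and 9.29 in skm4 and skm5. Kdr read 9.37 and 9.39 against 8.88 and 8.72, and Cdh5 was lower by less. The lowest reading of any lymphocyte marker was 4.85. The part of these cells in the clock gene levels was not tested.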

How the data were processed

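RNA of 4 normal muscle samples was measured on 1-colour Affymetrix arrays. The authors ran robust multi-array averaging (RMA), with Affymetrix Expression Console 1.1 named in the submitters' processing notes, and deposited log2 values, a scale judged from their range. RMA corrects background, equalises array distributions and summarises probes, and it compresses differences near the background. The sources used here do not name the arrays it was run on.

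Of 22690 probe sets, 64 controls were left out, 20380 had 1 gene and 691 several. Symbols were updated by Entrez identifier to GRCm38.p6, and 29 kept the older one. The probe set with the highest mean stood for each of 12393 genes. The skm minus nm difference was fitted with limma 3.58.1 in R 4.3.3 (lmFit, eBayes, 2-sided, Benjamini-Hochberg over all genes, threshold 0.05). A run on simulated data had to recover the simulated differences but set no bar for the number of genes called. With 2 residual degrees of freedom, the number of arrays limits the precision, and p-values reflect the spread of these arrays alone, possibly technical. The title prefix is used as a possible technical split, since the labels give 1 group.

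The members, lists and rules were chosen with earlier results of these data known. Named genes were all members and the 6 wider clock and 3 bHLH-PAS genes with the largest differences. The 3 genes nearest in centred values to each member with a range above 1 were named too, and for Arntl also to its mirror image. Alternatives were quantile normalization, median centring, an intensity trend, the mean of all probe sets, a filter at the median level and each sample left out. No pair of arrays held identical values.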

Additional observations from a re-analysis of the deposited data

Results flagged for a closer look

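Each of 44 clock and family genes was checked for a sample standing apart from the other 3. Chance gives this in about 1 of 20 genes whose 4 samples come from 1 population. It was found for 1, Btrc, a subunit of the ubiquitin ligase that takes up phosphorylated PER proteins, which read 7.96 in skm4 against 7.53 in nm7 and 7.52 in nm8 and skm5. No core member was among them. The members were chosen with a split between the pairs of samples, which leaves little room for such a flag. Nothing is read from its absence.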

How the results depend on the processing

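Every member kept its direction under each alternative that tested it. No alternative used another probe set alone. The other probe set of Npas2 differed by 0.03, and those of Per3 by -0.21 and -0.10, so these directions rest on 1 probe set each. The number of members called, 2 of 8, was 7 with quantile normalization, 7 with an intensity trend, 4 with probe sets averaged and 4 of the 4 left by the filter at the median level, and it was 0 when any 1 sample was left out. The genes called over all 12393, 4 as reported, numbered 188 with quantile normalization, 1110 with the intensity trend, 92 with probe sets averaged, 1026 of 6197 with the filter, and 0 to 15 with each sample left out (15 without skm5, 0 without each of the others). The wider clock genes called, 0 as reported, were 1 with quantile normalization, 7 with the trend, 1 with probe sets averaged and 7 of 17 with the filter. The other bHLH-PAS genes called, 0 as reported, were 4 with the trend and 4 of 5 with the filter. Median centring changed none of these counts. In limma's test as reported, 130 genes shared the next adjusted p of 0.0506; the cause of the changes in count was not tested. Per3 lost its call when its probe sets were averaged. All 8 members kept non-overlapping prefixes under quantile normalization and under averaging. The share of all genes without overlap was 54.4% in the values as reported and was not counted under these alternatives. The members were chosen with this split known, so nothing is read from it. No paired analysis was possible because all samples belong to 1 group and their titles share no number. Signal near the background limits the differences of Per2 and Npas2.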
